A study of Mus musculus with 4 samples.

Results

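The genes that assemble triglyceride and supply its glycerol backbone were followed in fat of mice whose liver lacks insulin receptor substrates. The set holds 10 genes, chosen by their place in the pathway: Gpd1, Pck1, Gk and Aqp7 for the backbone, and Gpam, Agpat2, Lpin1, Lpin2, Dgat1 and Dgat2 for the assembly. Each was read from a probe that names a single gene, taking the brightest by its mean where a gene had several. This gave 9 of the 10 genes, out of 22180 genes in all, and Gk, the glycerol kinase gene, was not analysed here. All 9 lay above the median gene (5.15 on the log2 scale) on every array.

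Epigonadal white adipose tissue, the fat pad attached to the testis and epididymis, was collected from fasted male mice and measured with 1 Affymetrix array for each of 4 groups. LDKO mice carry floxed Irs1 and Irs2 and an Albumin Cre transgene, and their control is the Irs1/2-flox line without Cre. LTKO mice carry floxed Irs1, Irs2 and FoxO1 with the same Cre, and their control is the Irs1/2:FoxO1-flox line without Cre. All 4 groups thus carry the floxed Irs1 and Irs2 alleles. The albumin promoter drives Cre in hepatocytes, so the deletion is aimed at the liver and not at the fat measured here. LDKO and LTKO fat came from mice aged 4 months, and the age of the control mice and whether an array holds 1 mouse or a pool are not stated in the labels. A group of 1 array leaves every difference without replicates, without an error and without a p-value, and this small number sets the precision. Values are log2 signals, 1 unit is 2-fold, and a difference is the first group minus the second.

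Adipocytes store fatty acids as triglyceride by joining 3 acyl chains to glycerol 3-phosphate. The backbone comes from glucose through dihydroxyacetone phosphate, from pyruvate and other small precursors through glyceroneogenesis, or from glycerol itself. In fasting, while stored fat is broken down, part of the released fatty acid is esterified again in the same cell, and glyceroneogenesis supplies much of the backbone for this in white fat. Insulin favours fat storage and restrains lipolysis in adipocytes.

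The fat identity of the arrays was checked with adipocyte markers, of which 9 of 10 were measured. All 9 lay above the median gene on every array, with a mean level between 11.29 and 11.42. The LTKO array stood apart in markers of neighbouring and distant tissues. Its mean epididymis marker level was 5.22, against 3.52 in its control, and 5 of 9 such markers lay above the median gene in LTKO, against 0 in its control. Its mean liver marker level was 7.24, against 5.69 in its control, with 7 of 9 above the median gene in LTKO and 3 of 9 in its control. Its mean level of testis and sperm markers was 6.35, against 4.65 in its control. Among the LDKO pair, the Irs1/2-flox control array stood apart in skeletal muscle markers, with a mean level of 5.04 in LDKO and 6.13 in the control, and in mesothelial markers, with 6.70 in LDKO and 7.38 in the control.

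The 9 genes fell into a few patterns over the arrays. Gpam, Lpin1 and Pck1 were lowest in LDKO. Gpd1, Agpat2, Dgat1 and Dgat2 were lowest in the Irs1/2-flox control. Aqp7, also lowest in the Irs1/2-flox control, moved little. Lpin2, also lowest in LDKO but by a small step, was highest in LTKO. Upstream sequences of Pck1, Gpam and Lpin1 from the first pattern and of Agpat2 from the second are printed here, to be read side by side. They are the 250 bases before the transcript start, read 5′ to 3′ on the strand of the gene, from RefSeq on GRCm38.p6, where 6 of the 9 genes matched. Gpd1, Dgat1 and Dgat2 had no match, so that Agpat2 alone is printed from the second pattern. Capitals mark the letters CGTCA (a half-site of the cAMP-responsive factor CREB), AGGTCA (a nuclear receptor half-site), TGTTCT (a glucocorticoid receptor half-site) and CACCCCAC (the core of the sterol regulatory element that SREBP binds), searched on both strands.
Pck1, chr2:173152823-173153072, plus strand: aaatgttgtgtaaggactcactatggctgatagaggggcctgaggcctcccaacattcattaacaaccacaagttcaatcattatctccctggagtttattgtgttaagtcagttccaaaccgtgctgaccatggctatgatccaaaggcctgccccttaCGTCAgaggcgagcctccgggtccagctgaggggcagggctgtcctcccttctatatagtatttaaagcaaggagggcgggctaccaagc
Gpam, chr19:55127239-55127488, minus strand: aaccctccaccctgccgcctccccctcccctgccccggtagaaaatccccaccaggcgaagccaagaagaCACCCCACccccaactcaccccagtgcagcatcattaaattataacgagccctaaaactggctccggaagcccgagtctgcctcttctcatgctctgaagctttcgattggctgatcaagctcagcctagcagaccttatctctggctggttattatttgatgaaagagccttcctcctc
Lpin1, chr12:16610967-16611216, minus strand: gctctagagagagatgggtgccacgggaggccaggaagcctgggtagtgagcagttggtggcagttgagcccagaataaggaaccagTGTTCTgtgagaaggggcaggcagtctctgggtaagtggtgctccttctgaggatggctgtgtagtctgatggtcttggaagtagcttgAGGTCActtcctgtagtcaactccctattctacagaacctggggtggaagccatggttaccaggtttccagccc
Agpat2, chr2:26604418-26604667, minus strand: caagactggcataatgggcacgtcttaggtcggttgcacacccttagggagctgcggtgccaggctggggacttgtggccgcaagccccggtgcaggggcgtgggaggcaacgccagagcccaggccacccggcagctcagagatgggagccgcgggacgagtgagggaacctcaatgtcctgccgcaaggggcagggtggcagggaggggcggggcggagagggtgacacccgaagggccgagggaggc

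In the Pck1 sequence CGTCA begins 90 bases before the start. In the Gpam sequence, taken at the one of its 2 listed starts that lies nearest the annotated 5′ end of the gene, CACCCCAC begins 180 bases before the start. The window at its other start, not printed, holds CGTCA 31 and 9 bases and AGGTCA 196 bases before that start. Lpin1 holds TGTTCT 163 bases and AGGTCA 74 bases before the start, and Agpat2 holds none of the 4 motifs in this window. Of the genes not printed, Aqp7, whose lowest array was also the Irs1/2-flox control, holds AGGTCA and TGTTCT over its listed starts. Lpin2, whose lowest array was also LDKO, holds CGTCA and TGTTCT over its listed starts. No matches overlapped. Of all 32851 promoters in the table, 17.8% hold CGTCA, 14.0% AGGTCA, 16.1% TGTTCT and 2.58% CACCCCAC in the same 250 bases. These matches describe the letters and are not sites of binding.

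Among the genes of backbone supply, Gpd1 encodes cytosolic glycerol 3-phosphate dehydrogenase, which reduces dihydroxyacetone phosphate from glycolysis to glycerol 3-phosphate. Its level was 10.72 in LDKO, 9.53 in the Irs1/2-flox control, 10.25 in LTKO and 10.25 in the Irs1/2:FoxO1-flox control. The LDKO array was thus highest and the Irs1/2-flox control lowest, while LTKO and its control had the same value. The difference was 1.20 in LDKO, which is 2.29-fold, and 0.00 in LTKO. Against the other control LDKO was higher by 0.47, so that part of the wide difference lies in the low value of the Irs1/2-flox control. The dimmer second probe of Gpd1 read 5.62 in LDKO, 4.84 in the Irs1/2-flox control, 5.22 in LTKO and 5.39 in the Irs1/2:FoxO1-flox control. It kept the highest and the lowest array, with a difference of 0.79 in LDKO and −0.17 in LTKO.

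Pck1 encodes cytosolic phosphoenolpyruvate carboxykinase, the key enzyme of glyceroneogenesis in fat, a gene raised by cAMP and lowered by insulin. Its level was 11.81 in LDKO, 12.34 in the Irs1/2-flox control, 12.42 in LTKO and 12.35 in the Irs1/2:FoxO1-flox control. LDKO alone was low, and the other 3 arrays lay within 0.0807 of each other. The difference was −0.53 in LDKO, a 1.44-fold lower signal, and 0.07 in LTKO. Since the controls differed by 0.0150, LDKO was lower by nearly the same amount against the other control, at −0.54.

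Aqp7, the aquaglyceroporin through which glycerol leaves and enters the adipocyte, was the member with the narrowest range. Its level was 10.80 in LDKO, 10.72 in the Irs1/2-flox control, 10.84 in LTKO and 11.01 in the Irs1/2:FoxO1-flox control. The differences were 0.08 in LDKO and −0.17 in LTKO, smaller than the 0.29 by which the Irs1/2:FoxO1-flox control exceeded the Irs1/2-flox control.

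The assembly begins with Gpam, the mitochondrial acyltransferase GPAT1 that adds the first acyl chain to glycerol 3-phosphate, a gene induced by insulin through SREBP1c in liver. Its level was 9.45 in LDKO, 10.20 in the Irs1/2-flox control, 9.96 in LTKO and 10.28 in the Irs1/2:FoxO1-flox control. Both Cre lines lay below both controls, LDKO further. The difference was −0.75 in LDKO, a 1.68-fold lower signal, and −0.32 in LTKO. Against the opposite control the differences were −0.82 in LDKO and −0.24 in LTKO. Gpam was the member with the most negative difference from its own control in each Cre line.

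Agpat2, the acyltransferase of the endoplasmic reticulum that adds the second acyl chain, is needed for fat storage, and its loss causes congenital lipodystrophy in people. Its level was 9.77 in LDKO, 8.76 in the Irs1/2-flox control, 9.37 in LTKO and 9.58 in the Irs1/2:FoxO1-flox control. The Irs1/2-flox control was lowest by a wide step, and LDKO was highest. The difference was 1.01 in LDKO, which is 2.02-fold, and −0.21 in LTKO, while LDKO exceeded the other control by 0.18.

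The lipins remove the phosphate from phosphatidate to give diacylglycerol, and Lpin1 is the main form in adipocytes. Lpin1 was 9.92 in LDKO, 10.63 in the Irs1/2-flox control, 10.39 in LTKO and 10.31 in the Irs1/2:FoxO1-flox control. LDKO was lowest, and its control was highest. The difference was −0.71 in LDKO, a 1.63-fold lower signal, and −0.39 against the other control, while LTKO differed from its own control by 0.07.

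Lpin2 is a form with a larger part in liver. Its level was 6.49 in LDKO, 6.54 in the Irs1/2-flox control, 6.94 in LTKO and 6.53 in the Irs1/2:FoxO1-flox control. LTKO was highest, and the other 3 arrays lay close together. The differences were −0.06 in LDKO and 0.40 in LTKO, with 0.40 against the other control too. LTKO is also the array with the raised liver, epididymis and sperm markers given above, and their part in this difference was not tested. A second Lpin2 probe lay below the median gene on all arrays and ordered them differently, with 4.39 in LDKO, 4.78 in the Irs1/2-flox control, 4.58 in LTKO and 3.62 in the Irs1/2:FoxO1-flox control.

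The last acyl chain is added by DGAT1 and DGAT2, enzymes of unrelated protein families that share this reaction. Dgat1 was 9.61 in LDKO, 8.78 in the Irs1/2-flox control, 9.34 in LTKO and 9.58 in the Irs1/2:FoxO1-flox control. Dgat2 was 9.67 in LDKO, 8.86 in the Irs1/2-flox control, 9.61 in LTKO and 9.72 in the Irs1/2:FoxO1-flox control. For both genes the Irs1/2-flox control was low and the other 3 arrays were near each other. The differences in LDKO were 0.83 for Dgat1 and 0.82 for Dgat2. Against the other control they were 0.04 for Dgat1 and −0.04 for Dgat2. In LTKO they were −0.23 for Dgat1 and −0.11 for Dgat2.

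**Figure D1:**
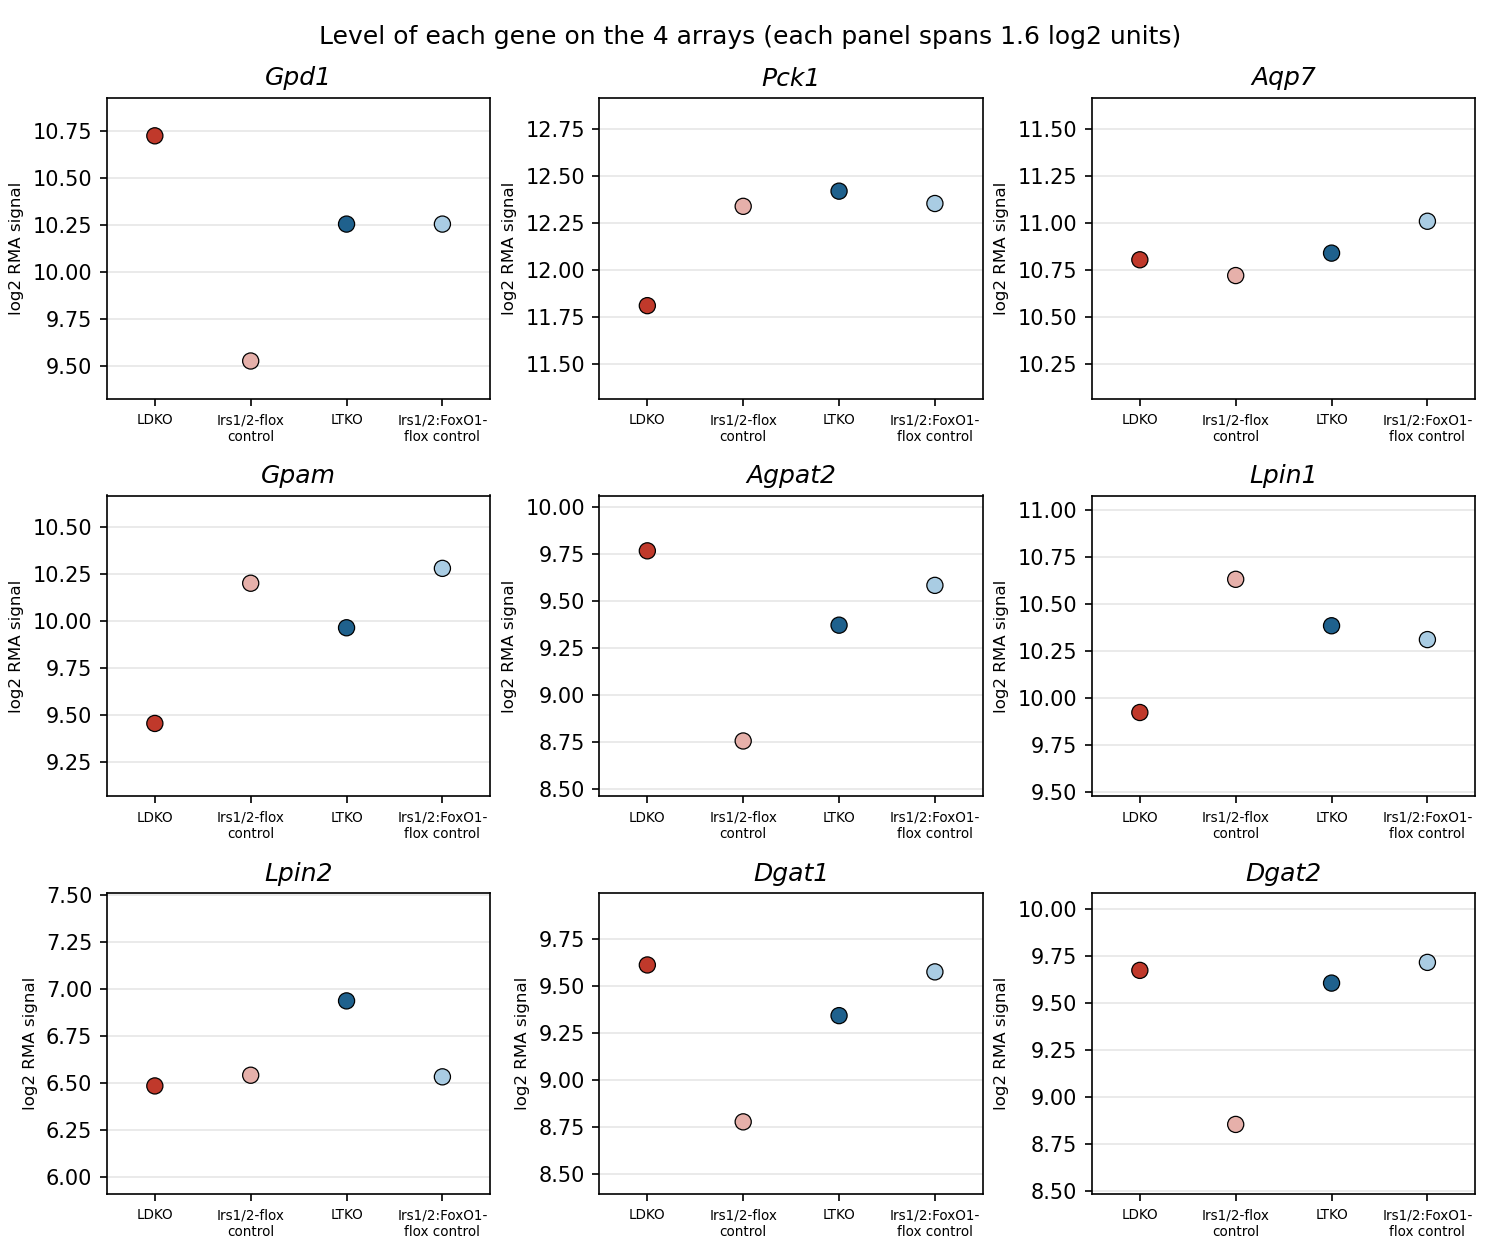
Log2 RMA signal of the 9 genes (vertical axis, each panel spanning the same number of log2 units) on the arrays of LDKO, the Irs1/2-flox control, LTKO and the Irs1/2:FoxO1-flox control; each point is 1 array. Gpam, Lpin1 and Pck1 have their lowest point in LDKO, while Gpd1, Agpat2, Dgat1 and Dgat2 have theirs in the Irs1/2-flox control.

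Counted by size, 2 of the 9 genes, Gpd1 and Agpat2, were at least 2-fold higher in LDKO than in its control, where 0.572% of 11533 genes were, and 0 were at least 2-fold lower, where 0.624% of genes were. At 1.5-fold, 4 genes were higher (Gpd1, Agpat2, Dgat1 and Dgat2), with 2.85% of all genes, and 2 were lower (Gpam and Lpin1), with 3.88% of all genes. The set was therefore split. Its median difference of 0.08, beside −0.05 over all genes, does not show how far its members moved from this control. The median size of a member's difference was 0.75, and that of all genes 0.18. Against the Irs1/2:FoxO1-flox control the median size was 0.20 for the members and 0.19 for all genes. In LTKO no gene was 1.5-fold apart from its control in either direction, beside 3.55% of all genes higher and 0.867% lower. With its 2 probes averaged Lpin2 passed this size, at 0.68. The median difference of the 9 genes there was −0.11, beside −0.03 over all genes, and the median size was 0.17, beside 0.13.

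Without Cre, the Irs1/2:FoxO1-flox control exceeded the Irs1/2-flox control by at least 1.5-fold in 4 of the 9 genes, where 2.06% of 11432 genes did, and 0 were lower by as much, where 2.48% were, although Lpin2 was at −0.59 with its probes averaged. They were Dgat2 at 0.86, Agpat2 at 0.83, Dgat1 at 0.80 and Gpd1 at 0.73, the 4 genes that were 1.5-fold higher in LDKO. Both comparisons use the Irs1/2-flox control array. It was the lowest array for 5 of the 9 members, counting Aqp7, and for 23.7% of all genes. For the 4 genes just named that array was separated from all others. Dgat2 was lower there by 0.75 than on the next lowest array, and 10 of 11958 genes had a gap as wide at this array. The gap was 0.73 for Gpd1, with 12 such genes, 0.62 for Agpat2, with 26, and 0.56 for Dgat1, with 39. The arrays were normalised together or apart in a way not known here, so a level set across them rests on the authors' processing.

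The mean level of the adipocyte markers was 11.38 in LDKO and 11.29 in the Irs1/2-flox control. The median difference of the 9 measured adipocyte markers was 0.07 in LDKO against this control. None of them was 1.5-fold apart, beside 2.85% of all genes higher and 3.88% lower. The perilipin gene Plin1, which coats the lipid droplet, differed most, with 10.05 in LDKO and 9.56 in the control. With 9.92 in LTKO and 10.08 in the Irs1/2:FoxO1-flox control, Plin1 too was lowest in the Irs1/2-flox control. Of 6 brown adipocyte markers 4 passed the filter on dim genes. Of these markers, Cidea and Cox8b were lowest in the Irs1/2-flox control, as the 4 genes were, and Cox7a1 and Ucp1 were not. In LDKO 3 of the 4 markers were higher than in the control, which 43.2% of all genes were. Of these, 2 were at least 1.5-fold higher, beside 2.85% of all genes. The median difference of the 4 markers was 0.63. All 4 markers were higher in the Irs1/2:FoxO1-flox control than in the Irs1/2-flox control, which 55.5% of all genes were. The median was 0.56, but Cox7a1 was higher by only 0.00592. Cidea was 7.43 in LDKO and 5.97 in the control, and Cox8b was 6.05 in LDKO and 5.19 in the control. Cox7a1 was 5.53 in LDKO and 5.15 in the control, while the defining gene Ucp1 was 4.83 in LDKO and 5.24 in the control. The part of the cells behind the adipocyte and brown adipocyte markers in the low values of the 4 genes was not tested. In whole tissue, fewer cells of a type and less RNA per cell cannot be told apart.

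The genes lowest in LDKO behaved otherwise, since the LDKO array itself was separated from the other 3. The gap between LDKO and the next lowest array was 0.53 for Pck1, and 156 of 11958 genes, 1.30%, had a gap as wide in this direction. It was 0.51 for Gpam, with 175 such genes, and 0.39 for Lpin1, with 401. LDKO was the lowest array for 37.4% of all genes and for 4 of the 9 members, counting Lpin2, whose gap was small. Set against the Irs1/2:FoxO1-flox control, 1 of the 9 genes was at least 1.5-fold lower in LDKO, Gpam, beside 4.22% of all genes, and 0 were that much higher, beside 2.82%. The LDKO array therefore had Pck1 and Gpam below each of the other arrays by about as much against either control.

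**Figure D2:**
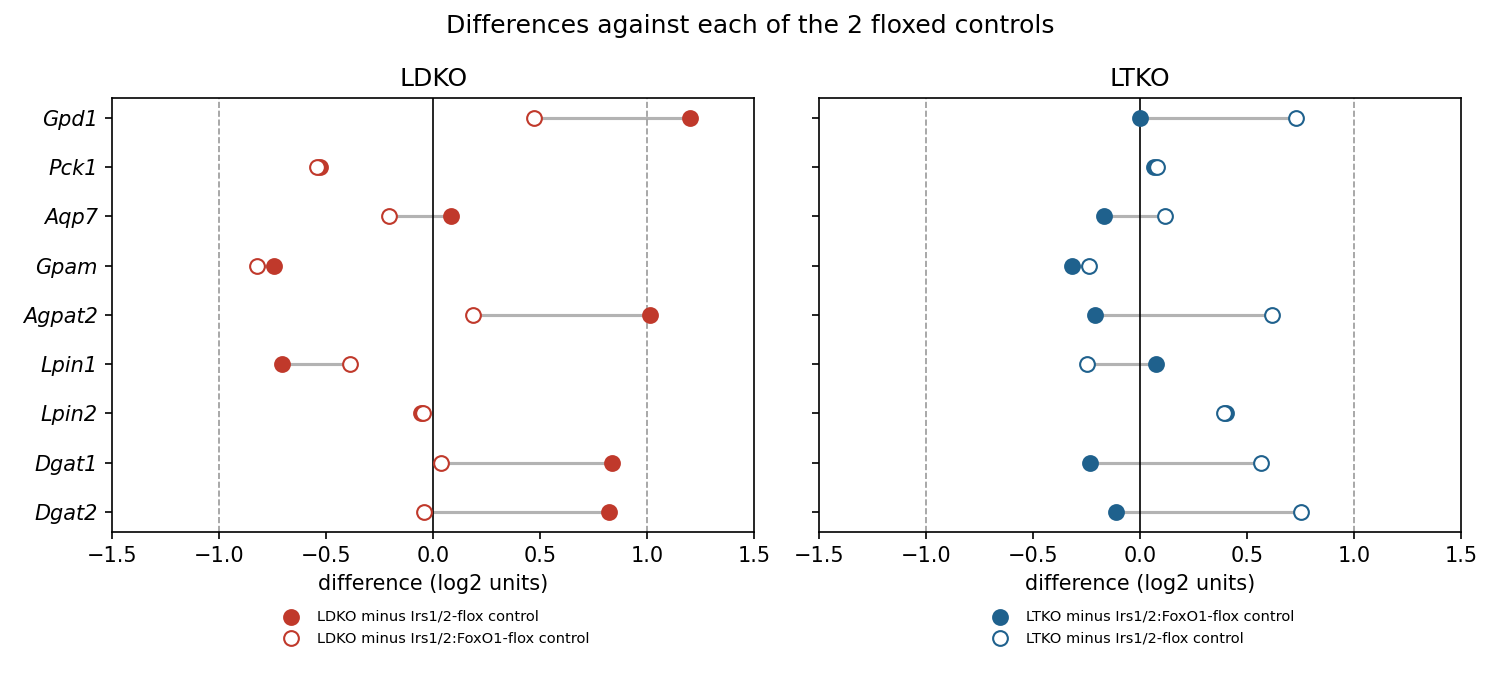
Difference of LDKO (left panel) and LTKO (right panel) from each of the 2 controls in log2 units; filled points use the line's own floxed control, open points the other control, and dashed lines mark 2-fold. In LDKO, Pck1 and Gpam keep their place against both controls, while the differences of Agpat2 (1.01), Dgat1 (0.83) and Dgat2 (0.82) from its own control are 0.18, 0.04 and −0.04 from the other.

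**Figure D3:**
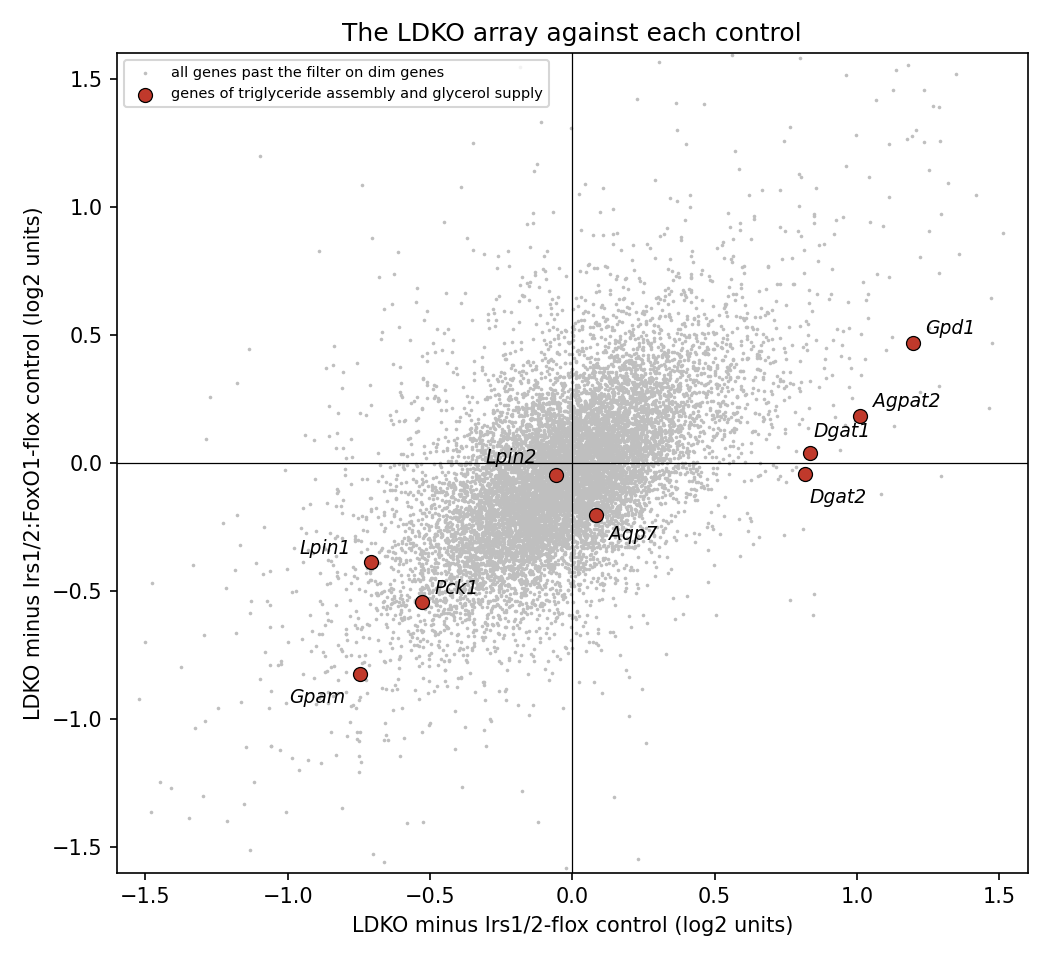
Each point is a gene, with LDKO minus the Irs1/2-flox control on the horizontal axis and LDKO minus the Irs1/2:FoxO1-flox control on the vertical axis, in log2 units; both axes share the LDKO array, and 43 of 11958 genes lie outside the range drawn. Gpam, Pck1 and Lpin1 lie below 0 on both axes, and Dgat1 and Dgat2 lie far to the right at a height near 0.

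Setting LTKO directly against LDKO leaves the controls out but holds any difference between the floxed lines. Pck1 was higher in LTKO by 0.61, which is 1.53-fold, and it was the only one of the 9 genes 1.5-fold apart in this comparison, where 5.41% of 11660 genes were that much higher and 2.57% that much lower. None of the 9 was 2-fold higher, beside 1.51% of all genes. Gpam was higher in LTKO by 0.51, Lpin1 by 0.46 and Lpin2 by 0.45. Gpd1 was lower, at −0.47, followed by Agpat2 at −0.40 and Dgat1 at −0.27. Dgat2 at −0.07 and Aqp7 at 0.04 were nearly level.

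Taken against the own controls, the LTKO difference was below the LDKO difference by at least 2-fold in Agpat2 (−1.22), Gpd1 (−1.20) and Dgat1 (−1.07), where 1.09% of 11958 genes were, and by −0.93 in Dgat2. It was above it by at least 1.5-fold in Lpin1 (0.78) and Pck1 (0.59), where 7.85% of genes were. The values of Agpat2, Gpd1, Dgat1 and Dgat2 include the low Irs1/2-flox control array, and directly against LDKO none of these 4 reached 1.5-fold.

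For the members whose range over the 4 arrays was at least 1, Gpd1 and Agpat2, the genes with the most similar profile were sought among 10341 others, by the root mean square distance of centred log2 values over the 4 arrays. Nearest to Gpd1 were Hacl1, a peroxisomal lyase of fatty acid alpha-oxidation, at 0.0667, the palmitoyltransferase Zdhhc2 at 0.0942 and the mitochondrial citrate carrier Slc25a1 at 0.0954. Nearest to Agpat2 were the retinol saturase Retsat at 0.0359, the epoxide hydrolase Ephx2 at 0.0377 and again Slc25a1 at 0.0570. With only 4 arrays many genes come close by this measure.

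The other genes of the pathway were read from fixed lists. Of 13 other isoforms and regulators of the assembly steps, all were measured and 10 passed the filter on dim genes. In LDKO 1 of the 10 was at least 1.5-fold higher, beside 2.85% of all genes, and 0 lower, beside 3.88%, with a median of 0.08. In LTKO 0 were apart, beside 3.55% higher and 0.867% lower, with a median of −0.00415. The gene that passed was Mogat1, a monoacylglycerol acyltransferase that enters the pathway past the lipins. Mogat1 was 6.72 in LDKO, 5.94 in the Irs1/2-flox control, 6.35 in LTKO and 6.74 in the Irs1/2:FoxO1-flox control. Its difference of 0.79 in LDKO was −0.02 against the other control, the pattern of Dgat1 and Dgat2. Gpat3, a form of the endoplasmic reticulum abundant in adipocytes, was higher by 0.42 in LDKO than in its own control, but the difference was −0.10 against the other control. In LTKO its difference was −0.08. Gpat4 was higher by 0.38 in LDKO, by 0.18 against the other control, and by 0.04 in LTKO.

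Of 12 other genes of backbone supply, 11 were measured and 9 passed the filter. In LDKO 3 were at least 1.5-fold higher, beside 2.85% of all genes, and 1 was lower, beside 3.88%, with a median of 0.03. Against the other control 1 was higher, beside 2.82% of all genes, and 2 were lower, beside 4.22%. In LTKO 1 was higher, beside 3.55%, and 0 were lower, beside 0.867%, with a median of −0.07. Tpi1, the triose phosphate isomerase that feeds dihydroxyacetone phosphate to GPD1, was 9.67 in LDKO, 8.35 in the Irs1/2-flox control, 8.70 in LTKO and 8.57 in the Irs1/2:FoxO1-flox control. LDKO alone was high, by 1.32 against its own control and by 1.09 against the other. Aqp11, an aquaporin of intracellular membranes that can pass glycerol, was 6.75 in LDKO, 5.49 in the Irs1/2-flox control, 6.64 in LTKO and 6.22 in the Irs1/2:FoxO1-flox control. The control of LDKO was low, so that the difference of 1.25 was 0.53 against the other control. Pcx, pyruvate carboxylase, which makes the oxaloacetate that PCK1 uses, was higher by 0.72 in LDKO, but by 0.06 against the other control. Aqp9, an aquaglyceroporin known from liver and epididymis, was 5.79 in LTKO and 5.07 in its control, on the array with raised markers of both tissues, and their part in this was not tested.

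Of 5 long-chain acyl-CoA synthetases, which activate fatty acids for all acyl transfers, 3 were measured and 2 passed the filter. Acsl4, a form that prefers arachidonic acid, was 7.14 in LDKO, 7.95 in the Irs1/2-flox control, 7.42 in LTKO and 7.43 in the Irs1/2:FoxO1-flox control. Its difference in LDKO was −0.81, and −0.30 against the other control.

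The phospholipid branch leaves the same phosphatidate and diacylglycerol. Of its 14 listed genes 13 were measured and 12 passed the filter. None of the 12 was 1.5-fold apart in LDKO, beside 2.85% of all genes higher and 3.88% lower, with a median of 0.10. In LTKO 1 was higher, beside 3.55% of all genes, with a median of −0.02. That gene was Cds1, a CDP-diacylglycerol synthase, with 5.72 in LTKO and 5.08 in its control, the latter below the median gene (5.15). LTKO is the array with raised liver, epididymis and sperm markers, and their part in this was not tested.

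Among 11 transcriptional regulators of triglyceride synthesis, all of which passed the filter, 2 were at least 1.5-fold higher in LDKO and 1 was lower, with a median of −0.05. These numbers stand beside 2.85% and 3.88% of all genes. Against the other control 0 were higher, beside 2.82% of all genes, and 2 were lower, beside 4.22%. In LTKO 0 were 1.5-fold apart, beside 3.55% of all genes higher and 0.867% lower, with a median of −0.16. Of the 11 regulators 8 were lower by any size, which 57.1% of all genes were. Mlxipl encodes ChREBP, a carbohydrate-sensing activator of lipogenic genes. Its level was 6.74 in LDKO, 7.50 in the Irs1/2-flox control, 7.52 in LTKO and 7.80 in the Irs1/2:FoxO1-flox control. LDKO was lowest, at −0.76 against its own control and −1.05 against the other, as with Gpam and Pck1. Srebf1, which encodes the insulin-induced activator SREBP1, was 7.12 in LDKO and 6.41 in its control, a difference of 0.71 that was 0.21 against the other control. Cebpa, an adipogenic factor, was 9.38 in LDKO and 8.77 in its control, a difference of 0.61 that was 0.27 against the other control. Pparg, the master regulator of adipocytes, differed by 0.05 in LDKO and −0.36 in LTKO.

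**Figure D4:**
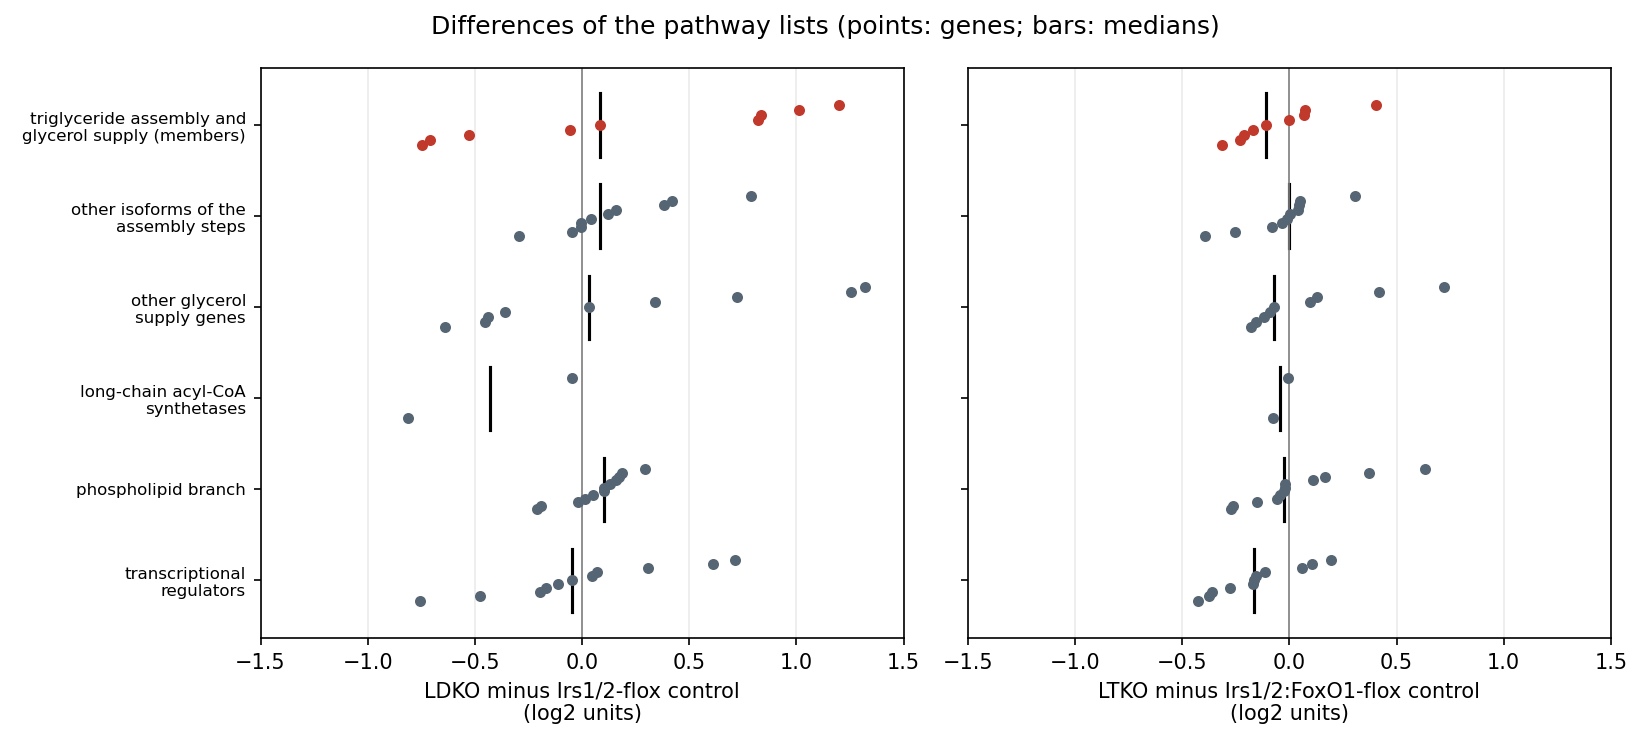
Differences of LDKO (left panel) and LTKO (right panel) from their own controls in log2 units for the genes of each pathway list that passed the filter on dim genes; points are genes and vertical bars are medians. In LDKO the 9 genes of triglyceride assembly and glycerol supply spread from −0.75 to 1.20, and in LTKO from −0.32 to 0.40.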

How the data were processed

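Gene expression in epigonadal fat was measured with 1 Affymetrix whole-transcript array for each of 4 groups, named by the source labels. The deposited values are log2 signals from Affymetrix Expression Console and RMA, run by the authors per the submitters' processing notes, which name no versions and no set of arrays normalised together. RMA cancels any shift common to all genes and compresses differences of dim probes.

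Of 41345 probes, 23521 have 1 gene symbol, and for 23328 of these the symbol came from the gene identifier in the GRCm38.p6 annotation. A gene was its probe with the highest mean over the 4 arrays. Genes whose highest array in a comparison reached the median gene (5.15) entered the counts, at 2-fold and 1.5-fold. With 1 array a group there was no test.

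The members and lists were chosen with earlier results of these data known, and the 4 motifs after the values were seen. The text names all members and, of each other list, up to 4 genes at least 1.5-fold apart in LDKO or LTKO. Gpat3, Gpat4, Plin1, Cidea, Cox7a1, Cox8b, Ucp1 and Pparg were named after their values were seen. The markers covered adipocytes, brown adipocytes, liver, epididymis, testis and sperm, skeletal muscle, mesothelium, macrophages, endothelium and kidney. Alternatives were other thresholds, the mean of a gene's probes, quantile normalization again, a loess curve removed and other reference arrays. The steps were tested on simulated data. Python 3.11.15, numpy 2.4.6, pandas 2.3.3, statsmodels 0.14.6 and matplotlib 3.10.9 were used.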

Additional observations from a re-analysis of the deposited data

Results flagged for a closer look

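For 7 genes the single LDKO and LTKO arrays lay on opposite sides of their own controls, a difference that was not tested. The share of all genes that did so was not counted. Against the Irs1/2:FoxO1-flox control, LDKO differed by only 0.18 for Agpat2, 0.04 for Dgat1 and −0.04 for Dgat2. The LTKO difference minus the LDKO difference was −1.22 for Agpat2, −1.07 for Dgat1, −0.93 for Dgat2 and −0.25 for Aqp7. It was 0.78 for Lpin1, 0.59 for Pck1 and 0.46 for Lpin2. With 1 array a group, opposite signs of small differences carry little weight. The values of Aqp7, of Pck1 (0.07), Lpin1 (0.07) and Dgat2 (−0.11) in LTKO, and of Lpin2 in LDKO (−0.06) are of that kind. In LTKO Agpat2 differed by −0.21 and Dgat1 by −0.23. As far apart or farther were 30.3% and 26.6% of 11533 genes.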

How the results depend on the processing

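The number of the 9 genes at least 2-fold higher in LDKO, 2 against its own control, was 1 when a gene's probes were averaged (Gpd1 then differed by 0.99), 4 at a 1.5-fold and 0 at a 3-fold threshold, and 0 with the mean of both controls or with the other control as reference. With probes averaged, Lpin2 differed by 0.68 in LTKO and by −0.59 between the controls, and its LTKO difference exceeded its LDKO difference by 0.91. The number lower in LDKO was 2 at 1.5-fold. The median LTKO difference, −0.11, was 0.17 against the mean of both controls and 0.40 against the other control. At 1.5-fold, 4 genes were higher in the Irs1/2:FoxO1-flox than in the Irs1/2-flox control, 1 was higher in LTKO than in LDKO, and 2 had a higher difference in LTKO; at 3-fold, 0 had a lower one. Quantile normalization again moved no difference of a member by more than 0.0588, and removal of a loess curve none by more than 0.103. Against the other control 7 of 9 genes kept their sign in LDKO and 3 of 9 in LTKO. No paired analysis was possible because each group has 1 array, and for the same reason none could be left out in turn. Dim probes, such as the second Lpin2 probe, limit what can be read.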

Other observations

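On the lists of backbone supply and of regulators, 3 of the further genes that were lowest in LDKO, as 37.4% of all genes were, are given here, chosen after their values were seen. They do not stand for the lists, and Pcx was highest in LDKO, with 9.92 in LDKO, 9.20 in the Irs1/2-flox control, 9.79 in LTKO and 9.86 in the Irs1/2:FoxO1-flox control. Pdk4, the kinase that spares pyruvate from oxidation in fasting, was 10.62 in LDKO, 11.26 in the Irs1/2-flox control, 11.48 in LTKO and 11.39 in the Irs1/2:FoxO1-flox control. The LDKO difference was −0.64 against its own control and −0.77 against the Irs1/2:FoxO1-flox control. Pck2, the mitochondrial form of the carboxykinase, was 6.78 in LDKO, 7.24 in the Irs1/2-flox control, 7.34 in LTKO and 7.52 in the Irs1/2:FoxO1-flox control. Ppargc1a, a coactivator that raises Pck1 in liver, was 6.01 in LDKO, 6.48 in the Irs1/2-flox control, 7.07 in LTKO and 6.88 in the Irs1/2:FoxO1-flox control, so that LTKO exceeded LDKO by 1.06, where 1.51% of genes were at least 2-fold higher.

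Markers of macrophages had a mean level of 8.25 in LDKO, 8.64 in the Irs1/2-flox control, 8.13 in LTKO and 8.45 in the Irs1/2:FoxO1-flox control. Endothelial markers had 8.91 in LDKO, 8.86 in the Irs1/2-flox control, 8.90 in LTKO and 8.996 in the Irs1/2:FoxO1-flox control. Kidney markers had 4.67 in LDKO, 4.79 in the Irs1/2-flox control, 4.97 in LTKO and 4.54 in the Irs1/2:FoxO1-flox control. Only 1 of these 5 markers, Lrp2, lay above the median gene. Lrp2 was 7.30 in LDKO, 7.59 in the Irs1/2-flox control, 8.74 in LTKO and 6.72 in the Irs1/2:FoxO1-flox control. Brown adipocyte markers had 5.33 in LDKO, 4.82 in the Irs1/2-flox control, 5.08 in LTKO and 5.27 in the Irs1/2:FoxO1-flox control.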
